A study of Mus musculus with 12 samples.

Results

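The response of AML12 cells, a mouse hepatocyte line, to FK228 and to overexpressed class I histone deacetylase (HDAC) mutants named YF, given together, was compared with what the responses to each alone would give if they combined independently. Messenger RNA levels were read from all 12 libraries of the series, 3 in each of 4 groups: control, FK228, YF mutants overexpressed, and FK228 with YF mutants overexpressed. Libraries of the control and FK228 groups are also coded GFP, with no explanation of the code, and no dose, time, mutated position or list of the mutated enzymes was found in the labels. Of the 19037 genes in the table, 13346 had enough counts to be tested, and all of them are described here. Each p-value is set against the spread between libraries of the same group, estimated from the 4 groups together. Whether replicates were grown as separate cultures is not stated, so that spread may be technical only.

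HDACs take acetyl groups off lysines of histones and other proteins. The class I enzymes Hdac1, Hdac2, Hdac3 and Hdac8 are nuclear, and the first 3 work inside corepressor complexes such as NuRD, Sin3, CoREST and NCoR/SMRT. FK228 (romidepsin) is a cyclic peptide prodrug whose reduced thiol binds the zinc in the active site of class I HDACs, so it blocks catalysis and leaves the protein in place. Overexpression of a mutant instead adds protein. The interaction asks whether the effect of FK228 was the same in cells with and without the YF mutants.

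That question has a different answer on each of 2 scales, and both were measured. On the log scale the expected level of the combination is the product of the separate fold changes, and the interaction is the log2 fold change of FK228 in YF cells minus that in control cells. On the linear scale the expected level is the sum of the separate differences in CPM (counts scaled to a common library size, with TMM factors), and the interaction is the combination minus YF minus FK228 plus control. An interaction is called more than additive where it has the sign of the combination's own change against control, and less than additive where it has the opposite sign. Calls are at an adjusted p of 0.05 over all 13346 genes.

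Libraries held 23664446 to 26122998 estimated counts. The hepatocyte label was checked against 9 hepatocyte markers in the table: in control, Hnf4a, Apob and Trf stood at 177, 429 and 519 CPM, Serpina1b at 37.4, Ttr at 9.03 and Apoa1 at 1.43 CPM, and Asgr1 and Cps1 at 0.155 and 0.0777 CPM. Alb, which encodes albumin, did not exceed 0.343 CPM in any library. Of 9 endothelial and 10 stellate cell and fibroblast markers, 8 and 8 were under 1 CPM in all 12 libraries, and of 10 macrophage and leukocyte markers Adgre1, C1qa, Clec4f and Tyrobp were, while Cd14 stood at 154 CPM in control. Replicates differed unequally: the chi-square between a pair of libraries, averaged over genes, was 15.2 and 13.9 for control replicate 1 against 2 and 3 and 7.58 for 2 against 3, and 21.6 for FK228 replicates 1 and 3, against 3.58 to 10.3 for the YF and combination pairs.

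Hdac1 (chr4:129516104-129542646, GRCm38.p6) had the largest interaction of the 4 class I HDAC genes. It stood at 101, 101 and 91.8 CPM in control, at 110, 113 and 107 with FK228, at 419, 382 and 405 in YF cells and at 799, 795 and 798 with both. No library of the combination came near any other group, and the expected levels were 453 CPM for the product and 414 CPM for the sum. The log2 interaction was 0.82 ± 0.08 (SE, n = 3 libraries per group, edgeR adjusted p = 4.45e-07) and the linear one was 383 ± 25 CPM (adjusted p = 2.16e-09). FK228 raised Hdac1 by a log2 fold change of 0.17 ± 0.06 in control cells and by 0.99 ± 0.06 in YF cells. Counts cannot separate the cell's own Hdac1 transcript from one made by an overexpressed construct, so the amount of construct transcript with and without FK228 cannot be told apart from a change of the cell's own gene. The part of this difference in the other interactions was not tested.

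The other class I genes differed less. Hdac8, which like Hdac1 rose with YF by the test, stood at 17.9 ± 0.567 CPM in control (SD, n = 3), 16.5 ± 1.26 with FK228, 42.1 ± 2.02 in YF cells and 38.7 ± 0.782 with both, with an interaction of -0.00 ± 0.10 (adjusted p = 0.988). Hdac2 gave 0.14 ± 0.08 (adjusted p = 0.201). Hdac3 gave 0.24 ± 0.07 (adjusted p = 0.0182), a call that was lost without FK228 replicate 2, without FK228 plus YF replicate 3 and with no count filter (highest adjusted p = 0.0615). Of 7 tested HDAC genes of other classes, Hdac5 and Hdac6 were above the product (0.41 ± 0.09 and 0.53 ± 0.08), and Hdac7 was below it (-0.66 ± 0.10).

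The effects of the 2 treatments were not multiplicative for 3531 of the 13346 genes (26.5%). The combination lay above the product for 1484 genes (11.1%) and below it for 2047 (15.3%). Most departures were small: the median absolute interaction of called genes was 0.48 on the log2 scale, and 79 genes lay at least 2-fold above and 452 at least 2-fold below the product. Over all tested genes the median interaction was -0.04, with 0.25 and 0.75 quantiles of -0.28 and 0.18. In 87 of the called genes some group held 3 counts or fewer over its 3 libraries, so the fitted size there depends on the prior count.

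Set against the direction of the combination, 2060 genes (15.4%) were more than additive on the log scale and 963 (7.22%) less. The more than additive genes were 978 that were higher in the combination than in control (7.33%) and 1082 that were lower (8.11%). The less than additive genes were 723 that were higher (5.42%) and 240 that were lower (1.8%). For the remaining 508 called genes the combination did not pass the test against control, so they have no direction. Part of this split is a matter of definition: for 514 of the 2060 genes the sum of the separate log2 fold changes pointed away from the direction of the combination, and with the sign of that sum as the reference 1546 genes were more and 1985 less than additive.

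**Figure D1:**
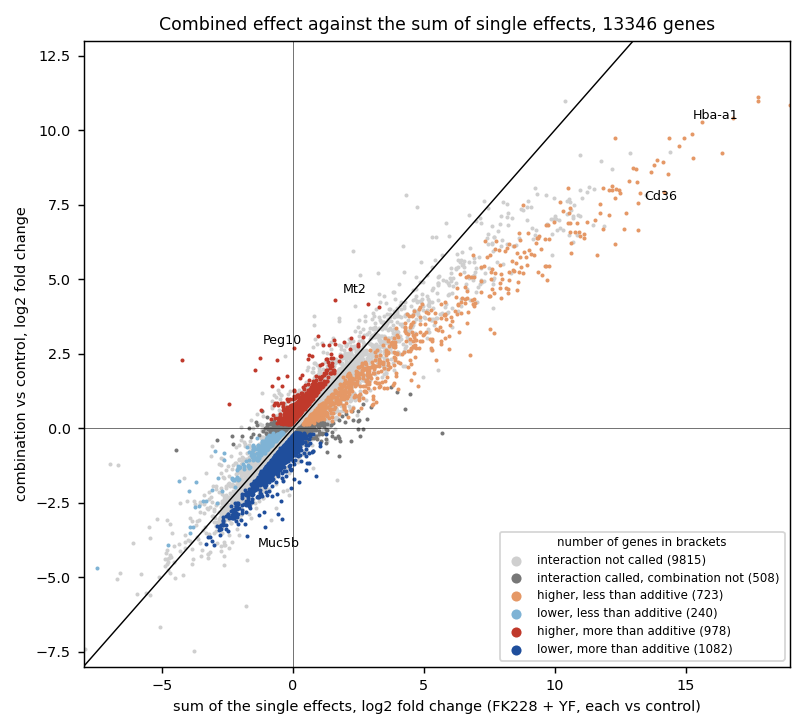
Log2 fold change of FK228 plus YF against control (vertical axis) plotted against the sum of the log2 fold changes of FK228 and YF alone (horizontal axis), 1 point per tested gene, with the line of equality. Red and dark blue points, more than additive, lie beyond the line near its centre, whereas orange points, higher and less than additive, form a long arm under the line at the right, up to Hba-a1 and Cd36; 3 genes lie outside the axes.

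The metallothionein genes Mt1 and Mt2, which encode small cysteine-rich proteins that bind zinc and copper, were among the most abundant transcripts with a more than additive rise. Mt1 (chr8:94178883-94180327) read 291, 347 and 391 CPM in control, 827, 683 and 598 with FK228, 383, 357 and 385 in YF cells and 2166, 2209 and 2718 with both. The YF libraries overlapped control, the FK228 libraries were above both, and the combination stood above its expected levels of 768 CPM (product) and 735 CPM (sum) in every library. The interaction was 1.62 ± 0.18 (adjusted p = 1.87e-05) on the log2 scale and 1630 ± 153 CPM on the linear scale (adjusted p = 4.54e-06). Mt2 (chr8:94172618-94173567) read 103, 113 and 141 CPM in control, 511, 428 and 348 with FK228, 226, 239 and 261 in YF cells, and 2065, 2067 and 2272 with both. Here each treatment alone raised the gene, and the combination still exceeded the product of 870 CPM (interaction 1.29 ± 0.19, adjusted p = 0.00026). The zinc importer gene Slc39a10, on the same list of 6 tested metallothionein and zinc genes, had a small interaction below 0 (-0.28 ± 0.10, adjusted p = 0.0362). That call was lost with library totals, with a replicate block and without any 1 of 7 libraries (control replicates 2 and 3, FK228 replicate 3, YF replicates 1 and 3, FK228 plus YF replicates 1 and 3).

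The bases before the start of Mt2 are shown because metal-responsive transcription factor 1 is known to act on metallothionein genes through short elements whose core reads TGCGCNC or TGCACNC. Capitals mark those letters on either strand (RefSeq, GRCm38.p6, 5′ to 3′, the 250 bases before the gene).
Mt2 (chr8:94172368-94172617, + strand): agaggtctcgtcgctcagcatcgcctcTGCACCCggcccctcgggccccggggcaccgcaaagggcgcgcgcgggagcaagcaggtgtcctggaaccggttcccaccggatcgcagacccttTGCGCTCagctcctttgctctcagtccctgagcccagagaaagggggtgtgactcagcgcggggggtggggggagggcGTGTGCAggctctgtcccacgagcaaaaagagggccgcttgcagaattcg
The window held 1 TGCGCNC and 2 TGCACNC. In the 250 bases before the start of 32851 promoter entries, 12.5% held the first and 10.4% the second, so each match alone is common. The bases before Mt1 are not shown because its annotated gene begins inside that window.

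Other genes named for a more than additive rise were lower in level. Peg10, a retrotransposon-derived imprinted gene, read 3.37, 4.82 and 4.9 CPM in control, 5.06, 6.72 and 6.78 with FK228, 4.78, 4.27 and 5.18 in YF cells and 21, 24 and 26.5 with both (interaction 1.82 ± 0.21, adjusted p = 2.62e-06). Mxd1, which encodes a dimerization partner of Max that opposes Myc, read 7.25 ± 1.4, 6.45 ± 0.824, 6.11 ± 0.636 and 19.2 ± 1.88 CPM in the same order, and neither treatment alone passed the test (1.82 ± 0.20, adjusted p = 1.13e-06). In both genes the combination libraries stood apart from the other 9. The other 3 groups of Mxd1 overlapped, whereas FK228 alone raised Peg10 by 0.50 on the log2 scale.

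A second kind of more than additive rise came from genes that FK228 alone lowered. Efnb2, the ligand ephrin-B2, fell from 16.2 CPM in control to 8.5 CPM with FK228 and was 29.1 CPM with both, so the FK228 effect was -0.93 ± 0.09 in control cells and 0.60 ± 0.08 in YF cells. Zfp36, which encodes a protein that marks AU-rich mRNAs for decay, went from 15.8 CPM to 11.6 CPM with FK228 and to 27 CPM with both (interaction 1.33 ± 0.12, adjusted p = 1.59e-07). Rabl2 and Mlf1 had the same shape, with interactions of 1.32 ± 0.14 and 1.23 ± 0.19. The product, 10.1 CPM for Efnb2 and 10.7 CPM for Zfp36, lay below control, so these are genes for which the sum of the single effects pointed down and the combination up.

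**Figure D2:**
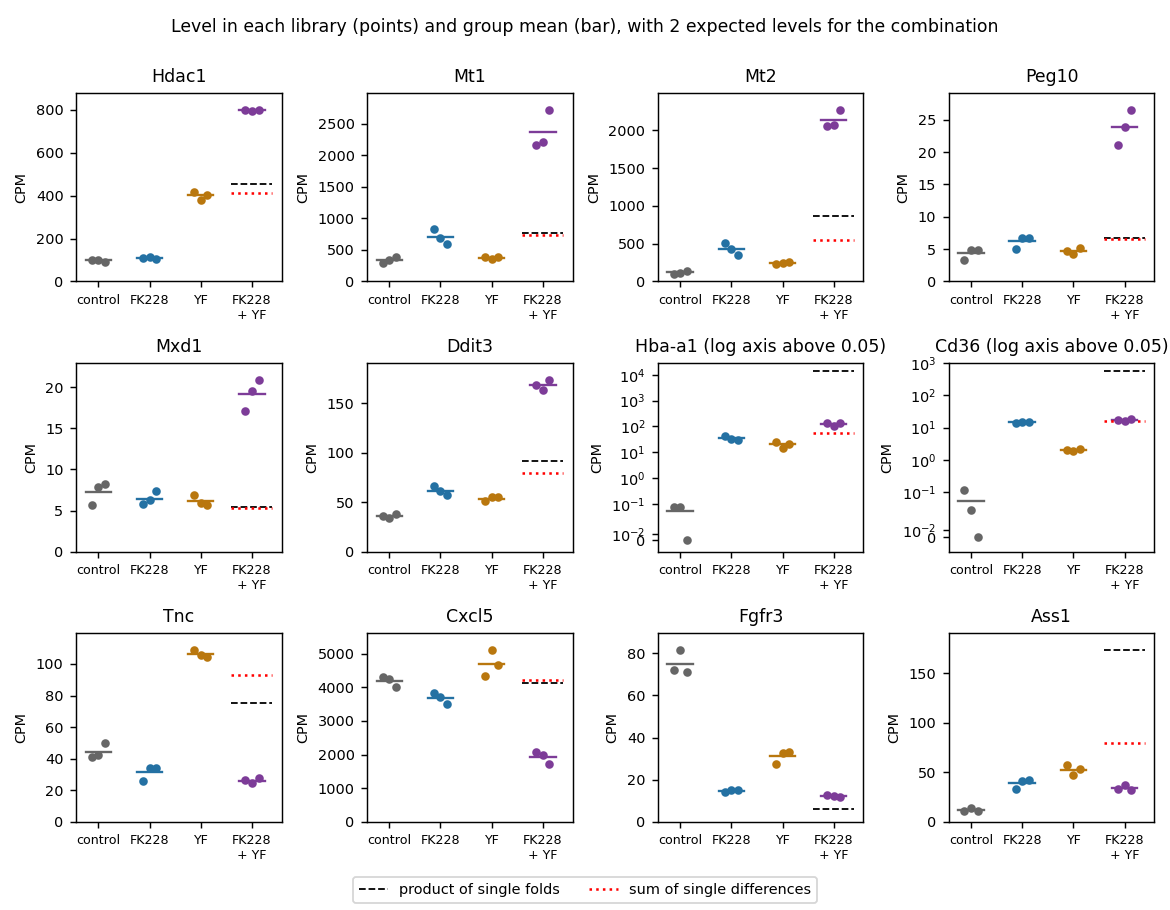
CPM in each of the 3 libraries per group (points) with the group mean (bar) for 12 genes; the dashed and dotted marks give the level of the combination expected from the product of the single fold changes and from the sum of the single differences. For Hdac1, Mt1, Mt2, Peg10, Mxd1 and Ddit3 all 3 libraries of the combination lie above both marks, for Tnc, Cxcl5 and Ass1 they lie below both, for Hba-a1 they lie between, for Cd36 they lie at the sum and below the product, and the negative sum of Fgfr3 is not drawn.

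Genes higher and less than additive included many that were nearly silent in control. Cd36, a fatty acid receptor, had 4 counts over the 3 control libraries (0.116, 0.0385 and 0 CPM), and read 13.4, 14.8 and 15.2 CPM with FK228, 1.98, 1.87 and 2.21 in YF cells and 17.6, 15.9 and 18.5 with both. The combination was near the sum of 16.4 CPM and far below the product of 566 CPM, which multiplies 2 fold changes that each rest on those 4 counts. Its fitted interaction of -4.90 ± 0.42 (adjusted p = 6.4e-08) is therefore a statement about the product only, and the linear interaction was 0.904 ± 1.25 CPM (adjusted p = 0.647). Gli1, a transcription factor of the Hedgehog pathway, had 14 counts in control and means of 13.4, 5.76 and 16.8 CPM with FK228, YF and both, near a sum of 19 CPM. Ndrg2 at 17.9 CPM and Apol9a at 13 CPM in the combination were near their sums of 16.8 and 11.3 CPM too, and none of Gli1, Ndrg2 and Apol9a passed the linear test.

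Less than additive rises were also found in genes that were abundant in control. Fn1, which encodes the matrix protein fibronectin, read 386, 416 and 431 CPM in control, 925, 991 and 1083 with FK228, 937, 789 and 879 in YF cells, and 809, 912 and 967 with both. The 3 treated groups overlapped, and the combination was short of the sum of 1457 CPM by 561 ± 63.9 CPM (adjusted p = 2.37e-06; log2 interaction -1.24 ± 0.11). This shape, a plateau in which both treatments alone moved a gene the same way and the combination did not differ from the larger single effect by the test, was counted in 434 genes, 342 raised and 92 lowered. The comparisons of FK228 and of YF with control share the control libraries, so these counts sort genes by shape and do not measure how alike the treatments are. Missing the test against the larger single effect does not show that the levels were equal.

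Among genes lower and more than additive, several were left alone or raised by each treatment alone. Tgfb3, a TGF-beta ligand, read 48, 47.2 and 49.9 CPM in control, 56.8, 65.2 and 62.6 with FK228, 58.4, 65.3 and 63.8 in YF cells, and 28.3, 30.5 and 24 with both. Each treatment alone raised it and the combination lowered it below every other library, for an interaction of -1.53 ± 0.11 (adjusted p = 7.18e-09). Lrrc32, which encodes a cell surface carrier of latent TGF-beta, had the largest interaction of this kind among genes with a mean of at least 5 CPM (-1.92 ± 0.17, adjusted p = 1.12e-07): FK228 raised it from 16.7 to 23.4 CPM, YF left it at 16.9 CPM, and the combination had 6.24 CPM. Vnn1, a pantetheinase, was raised by YF from 48.8 to 97.1 CPM and stood at 42.5 CPM with both (-1.45 ± 0.09, adjusted p = 1.02e-09). Tnc, the matrix protein tenascin C, is named for its class and not as a gene left alone or raised by each treatment. It read 109, 105 and 104 CPM with YF and 26.2, 24.5 and 27.5 CPM with both (-1.52 ± 0.13, adjusted p = 1.66e-07).

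Genes lower and less than additive formed the smallest class on the log scale, with 240 genes; on the linear scale they numbered 378 and those higher and less than additive 377. Fgfr3, a fibroblast growth factor receptor, read 72.2, 81.4 and 71 CPM in control, 14.2, 15.1 and 15 with FK228, 27.5, 32.7 and 33.2 in YF cells, and 12.7, 12.1 and 12 with both. The combination was lowest, but by a log2 step of -0.27 ± 0.09 from FK228 alone where YF alone had made one of -1.26 ± 0.08 (interaction 0.99 ± 0.12, adjusted p = 4.13e-06). The sum of the 2 differences would have taken it to -29 CPM, a level that cannot occur. Sema3a (1.00 ± 0.20), a secreted cue of axon growth, was less than additive as well. Neurl1b had the largest value of the class at that mean level, 1.07 ± 0.28, and lost its call with limma-voom (adjusted p = 0.106).

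On the linear scale 3284 genes (24.6%) departed from the sum, 2090 above it (15.7%) and 1194 below it (8.95%). The balance of the 2 signs, 1484 against 2047 on the log scale, was turned round. With the direction of the combination, 2041 genes (15.3%) were more and 755 (5.66%) less than additive, the former being 1491 higher genes (11.2%) and 550 lower genes (4.12%) and the latter 377 higher (2.82%) and 378 lower ones (2.83%). Both scales called the same class for 1500 more than additive and 527 less than additive genes. The scales differed where both treatments moved a gene the same way: among 1789 genes that FK228 and YF each raised, 133 were above and 663 below the product, whereas 463 were above and 290 below the sum. Among 1418 that each lowered, 345 were above the sum and 33 below it. For 172 of the 1418 the sum itself was below 0, so the combination could lie only above it. These sets were picked by effects that use the same libraries as the interaction, so the counts describe them and test nothing further.

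Genes called on both scales with opposite signs numbered 78, all of them below the product and above the sum. Rgs16, which encodes a GTPase activator that ends G protein signals, read 0.852, 1.04 and 0.817 CPM in control, 13.1, 15.7 and 15.3 with FK228, 11.2, 7.36 and 8.95 in YF cells and 75.5, 62.9 and 74 with both. The combination thus held 70.8 CPM where the sum was 22.9 and the product 149 CPM (log2 interaction -1.07 ± 0.24, adjusted p = 0.00318, linear 47.9 ± 3.6 CPM, adjusted p = 2.38e-08). The alpha globin gene Hba-a1, whose reads can be shared with its near-identical copy Hba-a2 and which had 4 counts in control, read 34.3, 20.6 and 126 CPM with FK228, YF and both, against a sum of 54.8 CPM. Ndrg4 went from 0.555 CPM to 9.73, 11.3 and 39.1 CPM against a sum of 20.4 CPM. The antiviral gene Rsad2 held 0.206, 16.7, 1.17 and 38.2 CPM, with a linear interaction of 20.5 ± 1.95 CPM and a log2 interaction of -1.28 ± 0.35 whose call was lost without control replicate 3 (-1.01, adjusted p = 0.0659). The log-scale call of Atp1b2 was lost without the same library (-1.23, against -1.48 with it), and that of Dact3 without control replicate 2 (-0.98, against -1.18 with it).

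**Figure D3:**
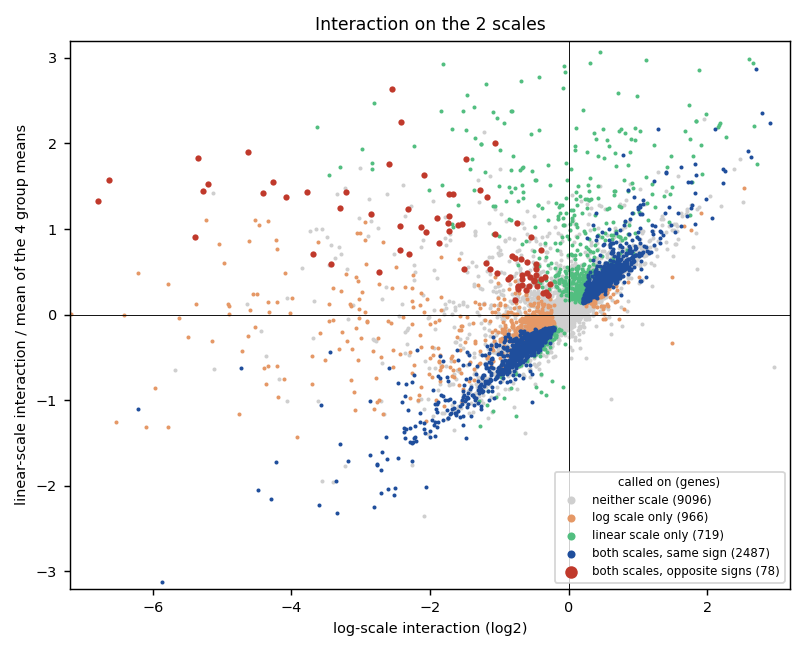
Linear-scale interaction divided by the mean of the 4 group means (vertical axis) against the log2 interaction (horizontal axis), 1 point per tested gene, coloured by the scales on which it was called. The blue points called on both scales with 1 sign lie in the lower left and upper right, the 78 red points lie in the upper left, below the product and above the sum, and no called gene has the reverse; 11 genes lie outside the axes.

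The largest linear interactions fell on abundant transcripts. Ftl1, the ferritin light chain that stores iron, whose reads can also fit processed copies, read 6165 ± 391 CPM in control, 8478 ± 780 with FK228, 5235 ± 109 in YF cells and 10667 ± 319 with both, 3120 ± 603 CPM above the sum (adjusted p = 0.000675). Clu, which encodes the secreted chaperone clusterin, was 957 ± 308 CPM above the sum (adjusted p = 0.027) but at the product (log2 interaction -0.02 ± 0.11, adjusted p = 0.91), and the linear call was lost without FK228 replicate 2 or any 1 of the combination libraries. Below the sum were the neutrophil chemokine Cxcl5 (-2265 ± 295 CPM), the siderophore-binding protein gene Lcn2 (-2176 ± 510), Spp1, which encodes osteopontin (-1621 ± 352), and Tpt1 (-1313 ± 409). Tpt1 was not called on the log scale (-0.18 ± 0.10, adjusted p = 0.218), and its linear call was lost without FK228 replicate 2 and without FK228 plus YF replicate 3.

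Over all tested genes, 68.8% were called for FK228 alone, 32.6% for YF alone, 77.4% for the combination, 70.6% for FK228 in YF cells and 52.9% for YF in FK228-treated cells. Sorted by which single effects passed, 1374 of the 3531 called genes had an effect of FK228 alone, 225 of YF alone and 1208 of both in the same direction. In 548 genes neither treatment alone passed but the combination did, 357 higher and 191 lower. Besides Mxd1 these included Xkr8, a member of the phospholipid scramblase family, at 5.26, 4.76, 5.97 and 12.4 CPM in control, FK228, YF and the combination (product 5.39 CPM, adjusted p of the interaction = 4.27e-05), and Taf7, a subunit of general transcription factor TFIID, at 4.45, 4.78, 4.28 and 9.39 CPM (1.03 ± 0.20, adjusted p = 0.000594). Lower with both were Clca3a2, of a family of chloride channel regulators, (7.47, 7.49, 9.16 and 4.47 CPM) and the glucuronosyltransferase gene Ugt2b35 (12.4, 13.3, 9.13 and 4.52 CPM). Clca3a2, Ugt2b35 and, below, Orm1, Orm2, Ly6a and Serpina3i belong to families of similar genes, so their counts are less certain where reads fit several members.

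The effect of FK228 changed direction with YF in 266 genes, of which FK228 raised 123 in control cells and lowered them in YF cells and did the opposite in 143. The effect of YF changed direction with FK228 in 233 genes (171 raised without and lowered with FK228, 62 the opposite), a number that fell to 154 without YF replicate 3. Ass1, the argininosuccinate synthetase of the urea cycle, read 11.3, 13.6 and 10.6 CPM in control, 33.3, 41.3 and 42 with FK228, 57.4, 47 and 53.6 in YF cells, and 33.6, 36.7 and 31.8 with both. FK228 raised it in control cells by 1.72 ± 0.11 and lowered it in YF cells by a log2 fold change of -0.63 ± 0.10. The acute phase gene Orm2 and the surface antigen gene Ly6a had the same kind of reversal, from 3.33 and 2.02 CPM in control to 11 and 20.5 with FK228, 8.11 and 7.89 in YF cells, and 5.72 and 15.5 with both; in Orm2 FK228 lowered the YF level and in Ly6a YF lowered the FK228 level. Serpina3i, a serine protease inhibitor, was raised by YF from 2.88 to 61.6 CPM and stood at 41.4 CPM with both. Vnn3, like its neighbour Vnn1, was raised by each treatment (31.6 to 47.5 and to 69.7 CPM) and stood at 26.2 CPM with both.

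Gene groups were described by 41 lists, with 884 tested members, beside the 11.1% of all tested genes above and 15.3% below the product. Cholesterol synthesis had the highest share above the product: 16 of its 25 tested genes were above the product and none below, with a median interaction of 0.41 against -0.04 over all genes. On the linear scale 17 of 25 were above the sum. The count above the product ranged from 14 to 17 over all alternatives and left-out libraries. Of the 16 genes, 8 were higher and more than additive, 5 lower and less than additive, and 3 without a called combination effect. FK228 alone lowered 13 of the 25 and raised 5, YF alone lowered 5 and raised 1, and in the combination 10 were higher and 8 lower than control.

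Mvk, the mevalonate kinase, read 18.9, 20.8 and 22.9 CPM in control, 15.5, 11.2 and 15.3 with FK228, 21.2, 18.1 and 18.6 in YF cells, and 27.5, 26 and 25.3 with both. FK228 alone lowered it and the 3 libraries of the combination were the highest of all (interaction 1.02 ± 0.15, adjusted p = 5.12e-05). Lss, which closes squalene epoxide into lanosterol, read 24.7, 20.2 and 25.2 CPM in control, 21.3, 19.7 and 21.8 with FK228, 22.2, 22.9 and 21.6 in YF cells and 36.4, 36.8 and 40.3 with both (0.92 ± 0.12, adjusted p = 1.02e-05). The other 3 groups overlapped. Idi1, which isomerizes isopentenyl diphosphate, stood at 34.7, 24.2, 28.4 and 33.2 CPM, back at its control level with both (0.75 ± 0.19, adjusted p = 0.0087). Dhcr7, which catalyses the final step to cholesterol, rose from 26.8 to 39.9 CPM with FK228 and to 70.2 CPM with both, while YF had 28.6 CPM (0.72 ± 0.10, adjusted p = 2.42e-05). Srebf2, which encodes the transcription factor SREBP-2 that drives this pathway, was lower with each treatment and had no called interaction (158, 123, 128 and 102 CPM, 0.03, adjusted p = 0.8), and is named here after its values were seen.

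**Figure D4:**
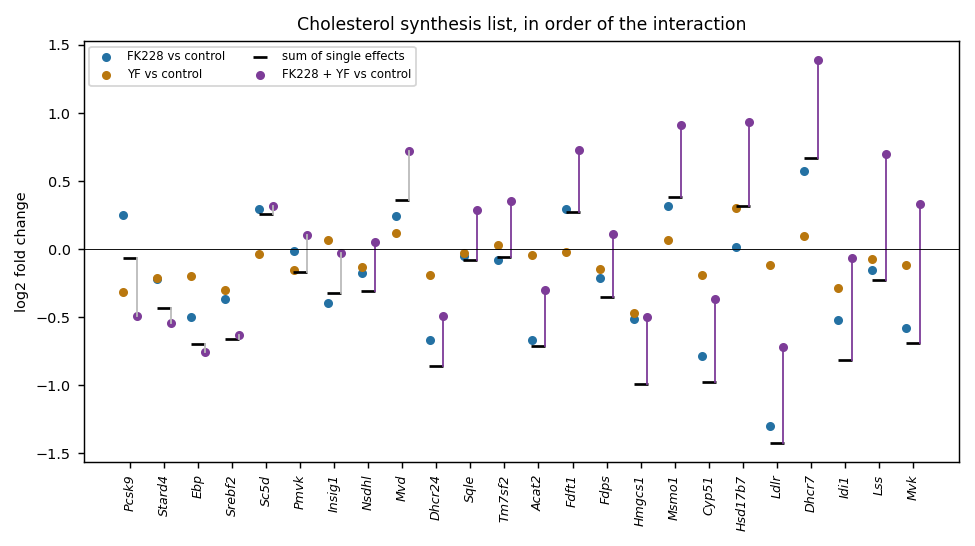
Log2 fold change against control of FK228 (blue), YF (ochre) and both (purple) for the tested genes of the cholesterol synthesis list (1 of the 25, not called, is left out), in order of the interaction; the black dash is the sum of the single effects, and the line from it to the purple point is the interaction, purple where called and grey where not. The purple points of the 16 called genes lie above their dashes, up to Mvk at the right.

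The bases before Mvk, Lss and Idi1, which were above the product, are shown. Dhcr7 was above the product as well, but its bases, which held neither motif marked below, are not shown. SREBP-2 is known to act on sterol genes beside the factor NF-Y, whose core site reads CCAAT, and capitals mark CCAAT on either strand or TCACCCCAC, a form of the sterol element (RefSeq, GRCm38.p6, 5′ to 3′, up to 250 bases that end before the annotated gene).
Mvk (chr5:114444019-114444263, + strand): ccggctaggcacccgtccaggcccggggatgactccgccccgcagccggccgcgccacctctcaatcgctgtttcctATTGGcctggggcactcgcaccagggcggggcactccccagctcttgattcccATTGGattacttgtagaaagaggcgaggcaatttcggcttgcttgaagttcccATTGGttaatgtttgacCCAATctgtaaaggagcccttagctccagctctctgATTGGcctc
Lss (chr10:76531355-76531564, + strand): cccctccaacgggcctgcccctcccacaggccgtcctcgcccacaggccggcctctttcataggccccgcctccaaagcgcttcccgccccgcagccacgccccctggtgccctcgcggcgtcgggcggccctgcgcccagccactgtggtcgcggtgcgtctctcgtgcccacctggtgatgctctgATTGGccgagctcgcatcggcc
Idi1 (chr13:8885356-8885605, + strand): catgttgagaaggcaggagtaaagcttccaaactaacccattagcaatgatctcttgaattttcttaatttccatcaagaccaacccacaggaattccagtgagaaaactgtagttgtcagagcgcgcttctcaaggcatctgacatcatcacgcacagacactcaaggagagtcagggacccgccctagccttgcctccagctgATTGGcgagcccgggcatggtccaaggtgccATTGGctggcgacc
Mvk held 5 runs of CCAAT, Lss 1 and Idi1 2, none held TCACCCCAC, and Dhcr7 held neither. Of 27025 genes with a promoter entry 37.5% held CCAAT and 0.555% TCACCCCAC in 250 bases. Of the 25 tested genes of the list only 17 had an entry, and 16 of those held CCAAT, so the count is partial. In the mitosis list, with members below the product, 30 of 36 tested genes had an entry and 22 held CCAAT. Nothing is drawn from the letters. In all 12 short motifs were searched, with results known.

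**Figure D5:**
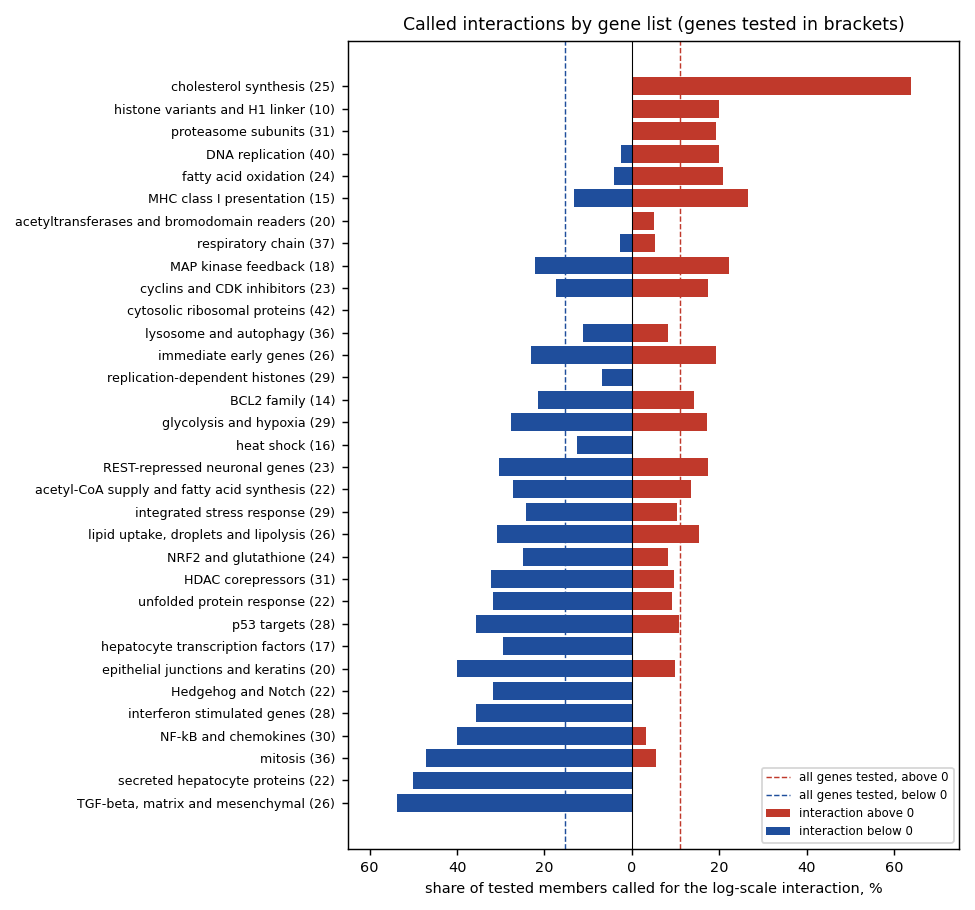
Share of tested members called above (red, right) and below (blue, left) the product for each list with at least 10 tested genes; dashed lines give the share over all tested genes. Cholesterol synthesis stands alone at the top. It has no blue bar, nor do proteasome subunits, histone variants and H1 linkers, or acetyltransferases and bromodomain readers. The matrix and secreted hepatocyte protein lists at the bottom have no red bar, nor do several other lists, and cytosolic ribosomal proteins have neither.

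Fatty acid oxidation and proteasome genes had more members above than below, but the shares called, 25% and 19.4%, were under the 26.5% of all genes. In fatty acid oxidation 5 of 24 were above and 1 below the product, among them Hadha and Hadhb, the subunits of the mitochondrial trifunctional protein, which rose from 170 and 80.9 CPM in control to 294 and 151 CPM with both (interactions 0.49 ± 0.08 and 0.45 ± 0.08). Of 31 proteasome subunits 6 were above and none below, led by Psmd13 (114, 135, 126 and 209 CPM, 0.49 ± 0.07) and Psmb2 (149, 175, 150 and 233 CPM, 0.40 ± 0.08); the count was 3 without FK228 replicate 2. Ndufv1, a subunit of complex I, reached 375 CPM with both where the product was 263 CPM, but in the respiratory chain list 2 of 37 were above and 1 below, a share near or under the background (7 above without FK228 replicate 1). None of 42 cytosolic ribosomal protein genes was called on either scale by these tests, with a median of -0.04 (4 were below the product without FK228 replicate 3).

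Mitosis genes were mostly below the product where called. Of 36 mitosis genes, 17 were below the product and 2 above (0 above without control replicate 1), with a median of -0.36. In bulk libraries such as these, fewer cells of a type and less RNA per cell cannot be told apart. FK228 lowered all 36 in control cells and all 36 in YF cells, while YF alone lowered none of them by the test. Ccnb2, a mitotic cyclin, read 118, 120 and 122 CPM in control, 18.3, 19.5 and 18 with FK228, 109, 114 and 109 in YF cells and 12, 9.29 and 8.52 with both, so YF made a difference of -0.91 ± 0.09 in the presence of FK228 and of -0.12 ± 0.07 without it (interaction -0.79 ± 0.12, adjusted p = 4.13e-05). Mki67, a marker of cycling cells, gave 201, 39.4, 216 and 25.6 CPM (-0.73 ± 0.11, adjusted p = 7.56e-05). On the linear scale 1 of the 36 was called, and Ccnb2 stood 0.76 ± 5.58 CPM from the sum.

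DNA replication genes, also lowered by FK228 in 40 of 40, had more members above than below, with 8 above the product and 1 below of 40 (14 above without control replicate 2, 4 below without control replicate 1), and 6 of the 8 were lower and less than additive. The share called was 22.5%, under the 26.5% of all genes, and on the linear scale 5 of the 40 were called, 4 above and 1 below the sum. No test compared this list with the mitosis genes. Gins4, a subunit of the GINS complex of the replicative helicase, read 60.3 CPM in control, 43.3 with FK228, 59.4 in YF cells and 70.5 with both (0.72 ± 0.08, adjusted p = 1.36e-06), and the primase subunit gene Prim2 read 30.2, 18, 34.4 and 32.8 CPM (0.68 ± 0.13, adjusted p = 0.000522). The 1 gene below was Rrm2 of ribonucleotide reductase (-0.61 ± 0.16). Cyclins and CDK inhibitors were 4 above and 4 below of 23 (1 above without FK228 plus YF replicate 3). Ccnd1, cyclin D1, had the largest change of them: 461 CPM in control, 356 with FK228, 558 in YF cells and 195 with both (-1.14 ± 0.09, adjusted p = 1.6e-08). Ccnd2 was raised by FK228 from 23.2 to 51.7 CPM, by YF to 35.1 CPM and stood at 44.3 CPM with both.

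Inflammatory, matrix and secreted protein genes were mostly below the product where called. Of 30 NF-kB target and chemokine genes 12 were below and 1, Ccl5, above, with a median of -0.30. Cxcl5 (chr5:90759298-90761625) read 4294, 4256 and 3998 CPM in control, 3840, 3720 and 3493 with FK228, 4322, 5099 and 4675 in YF cells and 2076, 1998 and 1730 with both (-1.10 ± 0.11, adjusted p = 6.6e-07). FK228 alone lowered it by a log2 fold change of -0.18 ± 0.08, YF alone did not pass the test, and the combination stood apart from the other 9 libraries. Cxcl1 and the acute phase gene Saa3 were raised by each treatment and less than additive with both, at 963 CPM against a product of 1790 CPM and at 1736 CPM against 3293 CPM. Saa3 did not differ from the sum by the test (114 ± 91.4 CPM, adjusted p = 0.398), and Cxcl1 was below it (-538 ± 69.7 CPM, adjusted p = 1.04e-05).

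Of 26 TGF-beta, matrix and mesenchymal genes 14 were below the product and none above (median -0.35; 9 below without FK228 plus YF replicate 1). Besides Tnc and Fn1 these included Ccn2, a matricellular TGF-beta target (106, 639, 205 and 631 CPM, -0.97 ± 0.15). Secreted hepatocyte proteins had 11 of 22 below and none above. Orm1, an acute phase glycoprotein, read 24.8, 24.4 and 25.9 CPM in control, 58.1, 61.5 and 57.3 with FK228, 45.8, 53.6 and 49.5 in YF cells and 38.2, 39 and 33.8 with both (-1.66 ± 0.10, adjusted p = 1.02e-09). Its combination libraries lay between control and each treatment.

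Hepatocyte transcription factor genes were lower and more than additive where called on the log scale, while calls on the linear scale were split between more and less than additive. Of 17 hepatocyte transcription factor genes 5 were below the product and none above, 3 without YF replicate 1. The share called, 29.4%, was near the 26.5% of all genes. Foxa2, a pioneer factor, read 73.1, 43, 71.3 and 27.7 CPM (-0.60 ± 0.09, adjusted p = 6.61e-05). Nr1h4, the bile acid receptor FXR, read 56.4, 34, 47.8 and 20.5 CPM (-0.49 ± 0.10, adjusted p = 0.00149). On the linear scale 4 of the 17 were called, 2 lower and more than additive and 2 lower and less than additive. Foxa2 stood -13.5 ± 3.50 CPM from the sum (adjusted p = 0.00746). Hnf4a, the central hepatocyte factor, lay on opposite sides of the 2 expectations. Its log2 interaction was -0.27 ± 0.09 (adjusted p = 0.0267). That call was lost with library totals and without control replicate 3, FK228 replicate 3, YF replicate 1, or FK228 plus YF replicate 2 or 3 (highest adjusted p = 0.072). Its 28.7 CPM with both stood 34.0 ± 6.45 CPM above a sum of -5.36 CPM (adjusted p = 0.000552). No level can lie below such a sum, so that side was fixed in advance. Of 8 hepatocyte markers tested, 2 were called on the log scale, both lower and more than additive. On the linear scale 5 were called, 4 of them lower and less than additive. Those 4 were Ttr, Serpina1b, Hnf4a and Apoa1, whose sums were below 0, so their side was fixed in advance as well. Epithelial junction and keratin genes had 8 of 20 below and 2 above (0 above without control replicate 2), with Cldn2, a pore-forming claudin, at 428, 214, 374 and 87.4 CPM (-1.10 ± 0.09, adjusted p = 2.83e-08) and E-cadherin, Cdh1, at 107, 71.3, 95.5 and 43.9 CPM (-0.54 ± 0.11, adjusted p = 0.00162). Summed over 9 cholangiocyte and progenitor markers, of which Prom1 was under 1 CPM throughout, libraries held 5956 to 6066 CPM in control, 6069 to 6523 with FK228, 6415 to 6664 in YF cells and 4841 to 5662 with both, and their part in these interactions was not tested.

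Stress genes lay on both sides of the product. In the integrated stress response 3 of 29 genes were above the product and 7 below. Of these 10 genes 9 were more than additive, 3 higher and 6 lower than control. None was less than additive, and 1 had no called combination effect. Ddit3, which encodes CHOP, read 36.3, 34.3 and 37.8 CPM in control, 66.2, 61.1 and 57.6 with FK228, 51, 54.9 and 55 in YF cells, and 169, 164 and 174 with both, above a product of 91.6 CPM (0.88 ± 0.09, adjusted p = 4.45e-07). Atf3, a transcription factor of the same branch, fell with FK228 from 25.5 to 15.2 CPM, rose with YF to 32.3 and reached 43 CPM with both (1.15 ± 0.10, adjusted p = 6.95e-08). The chromatin protein gene Nupr1 went below (50.2, 44.1, 65.3 and 29.1 CPM, -0.98 ± 0.15, adjusted p = 0.000166). In the unfolded protein response 7 of 22 were below and 2 above (4 below without FK228 replicate 2), with Herpud1 of endoplasmic reticulum degradation raised by FK228 from 115 to 134 CPM and at 81.6 CPM with both (-0.72 ± 0.08) and Xbp1 at 219, 161, 211 and 106 CPM (-0.55 ± 0.08). Among 24 NRF2 and glutathione genes 2 were above and 6 below (4 above without control replicate 1): the peroxiredoxin repair enzyme gene Srxn1 read 48.2, 100, 63.3 and 270 CPM (1.03 ± 0.11, adjusted p = 1.36e-06), whereas glutathione reductase, Gsr, read 175, 164, 161 and 91.1 CPM (-0.73 ± 0.08, adjusted p = 1.8e-06).

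Of 28 p53 targets 10 were below and 3 above (1 above with no count filter). Fas, a death receptor, stood at 124, 205, 149 and 153 CPM, below both its product of 245 and its sum of 229 CPM (-0.68 ± 0.08, adjusted p = 3.1e-06), and Phlda3, an inhibitor of Akt, at 139, 162, 151 and 110 CPM (-0.68 ± 0.09). The kinase gene Plk3 was above, at 2.74, 3.95, 5.17 and 14.1 CPM (0.91 ± 0.24, adjusted p = 0.00722). MAP kinase feedback genes were 4 above and 4 below of 18. The phosphatase gene Dusp1 was at 6.24, 9.22, 10 and 31.4 CPM (1.08 ± 0.19, adjusted p = 0.000336) and Etv5 at 1.12, 1.57, 2.43 and 7.98 CPM (1.23 ± 0.30, adjusted p = 0.00406), while Spry1, an inhibitor of receptor tyrosine kinase signals, was at 14.1, 28.7, 20.7 and 22.3 CPM (-0.91 ± 0.11, adjusted p = 4.73e-06).

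The scales differed for 2 lists with members near 0 in control. Of 28 interferon stimulated genes 10 were below the product and none above (6 without FK228 plus YF replicate 1), 9 of them higher and less than additive, whereas on the linear scale 2 were above and 4 below the sum. Oas1a, a sensor of double-stranded RNA, held 0.206, 15.8, 1.81 and 17.6 CPM, so the combination was at the sum of 17.4 CPM (linear interaction 0.225 CPM, adjusted p = 0.926; log2 interaction -2.95 ± 0.34 against a control of 16 counts). Of 23 neuronal genes repressed by REST, 4 were above and 7 below the product (4 below without control replicate 1), but 11 were above and 1 below the sum. Map1a, a microtubule-associated protein gene, was at 0.348, 14.2, 4.15 and 19 CPM, near its sum of 18 CPM. Members near 0 in control could pass the count filter only through treated groups, so these counts are a description.

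Subunits of the complexes that hold class I HDACs were mostly below the product where called. Of 31 HDAC corepressor genes 10 were below and 3 above (1 above without FK228 replicate 2), 9 of them lower and more than additive, although the median was -0.07. Mta3 of NuRD read 47.2, 34.5, 40.9 and 17.9 CPM (-0.74 ± 0.11, adjusted p = 3.55e-05). Tbl1x of the NCoR complex read 106, 106, 92.2 and 68.6 CPM (-0.43 ± 0.09, adjusted p = 0.00185), and Gps2 of the same complex read 65.6, 71.2, 58.8 and 91.6 CPM, above its product (0.52 ± 0.08, adjusted p = 0.000128). Of 20 acetyltransferases and bromodomain readers 1 was called, Brd7 (0.31 ± 0.09), and of 29 replication-dependent histone genes 2 were, both below, including the linker histone gene H1f2 at 5.73, 81.8, 9.33 and 77.5 CPM (-0.78 ± 0.15, adjusted p = 0.000757). That share, 6.9%, was under the 26.5% of all genes. On the linear scale 5 of the 29 histone genes were called, all above the sum and more than additive. That was near the 15.7% of all tested genes above the sum. The median control level of these 29 genes was 0.259 CPM, and in 6 of them some group held 3 counts or fewer. Members near 0 in control could pass the count filter only through treated groups, so the counts on both scales are a description.

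Lipid handling genes were 4 above and 8 below of 26, with Cd36, Fabp4 (11.4 CPM with both, 7 counts in control) and Lpl, the lipoprotein lipase (1.55, 7.64, 4.65 and 8.97 CPM, -1.35 ± 0.21), below. In acetyl-CoA supply and fatty acid synthesis 3 of 22 were above and 6 below, among them the desaturase gene Fads2 at 288, 212, 255 and 120 CPM (-0.64 ± 0.08, adjusted p = 4.19e-06) and the cytosolic acetyl-CoA synthetase gene Acss2 at 7.19, 59.4, 19.8 and 80.1 CPM (-1.03 ± 0.10, adjusted p = 6.09e-07). In glycolysis and hypoxia 5 of 29 were above and 8 below (3 above without control replicate 2), with Ndrg1 lowered by YF alone from 293 to 127 CPM and at 322 CPM with both (1.02 ± 0.22, adjusted p = 0.00658) and the hexokinase gene Hk2 raised by FK228 from 20.4 to 36.1 CPM and at 26.3 CPM with both (-0.69 ± 0.14, adjusted p = 0.000829). Of the Hedgehog and Notch genes 7 of 22 were below and none above, including the receptor gene Notch1 at 14.6, 39.8, 20.8 and 28.8 CPM (-0.97 ± 0.12, adjusted p = 8.76e-06).

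In the remaining lists calls went both ways or were few. Immediate early genes were 5 above and 6 below the product of 26 (42.3% called), lysosome and autophagy genes 3 and 4 of 36, BCL2 family genes 2 and 3 of 14, and heat shock genes 0 and 2 of 16. MHC class I presentation genes were 4 above and 2 below of 15, 40% called (1 above without control replicate 2), and histone variants and H1 linkers 2 above and 0 below of 10. Of the cell type marker lists, hepatocyte markers were 0 above and 2 below of 8 tested, cholangiocyte and progenitor markers 1 and 3 of 8, macrophage and leukocyte markers 0 and 2 of 6, and stellate cell and fibroblast markers 0 and 2 of 3 (0 without control replicate 1).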

How the data were processed

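The deposited values used here are expected counts per gene, which per the file headers and column totals the authors had not scaled to library size; 16.6% are not whole. Among the tools in the submitters' processing notes are RSEM 1.2.12, Bowtie2 2.2.5, HISAT2 2.0.4 and DESeq2 1.4.5, but no role is given for any, and the build named there is GRCm38.p6. Whether strand was used is not given in the sources used here.

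Counts were rounded and filtered with filterByExpr, and 1 quasi-likelihood fit with a term per group was made over the 12 libraries (edgeR 4.0.16, limma 3.58.1, R 4.3.3; TMM, robust dispersions). The linear interaction was tested by a two-sided Wald test on CPM means with variances from that fit. Adjustment was Benjamini-Hochberg over all genes. Where 4 levels follow each other they are means of 3 libraries in the order control, FK228, YF, both. Errors are SE of the fit for differences and SD for levels.

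Named genes were every class I HDAC gene; the 8 largest log2 interactions in each class, the 6 largest among combination-only, reversal and opposite-sign genes (mean CPM of 5 or more, proper symbol); up to 4 called members per list (mean CPM of 1 or more); and the 4 largest linear interactions of each sign. The members and lists were chosen with earlier results of these data known. Alternatives were RLE scaling (DESeq2 size factors), library totals, no count filter, 5 CPM in 3 libraries, DESeq2 1.42.0, limma-voom, limma on CPM, a replicate block, the other direction rule and leaving out each library. Both tests were checked on simulated data, with 14 false among 189 calls on the log scale and 9 among 141 on the linear scale. Of the smallest changes put in, 67.2% and 34.8% were called. The linear check left out genes whose sum was near or below 0, so it does not cover genes such as Fgfr3 and Hnf4a. Of the gene IDs 18980 matched RefSeq GRCm38.p6. A few genes that the naming rule gives are not reported here.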

Additional observations from a re-analysis of the deposited data

Results flagged for a closer look

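A difference between the FK228 effect with YF and without it is itself what was tested here, so each of the 3531 genes with a called interaction is a result that differed between 2 backgrounds. The strictest form is a change of direction. The FK228 effect changed direction with YF in 266 genes, and the YF effect changed direction with FK228 in 233.

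Of the genes named for a reversal, log2 interactions were -2.37 for Btn1a1, -2.36 for Ly6a, -2.35 for Ass1, -2.22 for Orm2, -2.00 for Vnn3 and -1.96 for Serpina3i. All 6 were raised by each treatment alone and lay below both expected levels with both. Btn1a1, a butyrophilin gene, read 1.55, 2.12 and 1.67 CPM in control, 7.63, 7.69 and 8.6 with FK228, 5.81, 5.53 and 5.71 with YF and 5, 4.24 and 5.46 with both. With 3 libraries a group, no single library was tested against its group for any one gene.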

How the results depend on the processing

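The counts of called interactions on both scales, of the additivity classes and of the response patterns stayed within 1.5 times their values under every alternative, with 2 exceptions. Less than additive genes on the log scale numbered 1985 when the direction came from the sum of the single effects, by construction, and YF effects that changed direction numbered 154 to 287 with 1 library left out. Leaving out 1 library gave 1113 to 1548 genes above and 1692 to 2143 below the product, both highest without control replicate 1, and 78.8% to 99.3% of the calls were shared with each alternative of the fit, all in the same direction. The replicate block gave 3144 calls, 3125 of them shared (88.5%). Replicate numbers did not pair the libraries: same-numbered libraries of different groups correlated at -0.43 to 0.23 over 10450 genes, above 0.1 in 2 of 18 pairs. Differently numbered ones correlated at -0.23 to 0.44, above 0.1 in 9 of 36 pairs, highest for control replicate 1 with YF replicate 2. The replicate block does not model such links, and their source was not tested. Of 178 named genes, 146 kept their sign and their side of the log-scale threshold throughout, whether called or not, 30 lost their call under some alternative and 2 that were never called changed sign. Hdac8 was 0.0047 with library totals, 0.00021 with limma-voom and -0.075 to 0.034 with 1 library left out, and Clu was -0.10 to 0.047 with 1 library left out. The cause of these shifts was not tested. Counts limit genes near 0 in control, where the product depends on a few reads.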
